A study of Mus musculus with 4 samples.

Results

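Prox1, Nr2f1, Nr2f2, Sp8, Npas1, Npas3, Htr3a and Vip are 8 genes usually tied to interneurons of the caudal ganglionic eminence (CGE). Their counts of unique molecular identifiers (UMIs) were followed in cells sorted for descent from the medial ganglionic eminence (MGE). The 8 were chosen by symbol among the 43348 genes of the count matrices, and all 8 were found.

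Cortical and hippocampal interneurons arise in neighbouring eminences of the embryonic ventral forebrain. Somatostatin (SST) and parvalbumin (PVALB) cells and some neurogliaform cells (NGFC) come from the Nkx2-1-expressing MGE, while cells with vasoactive intestinal peptide or the ionotropic serotonin receptor come mainly from the CGE. Nkx2-1 descent also reaches oligodendrocytes, and several CGE factors act outside interneurons, among them Prox1 in dentate granule cells and the oligodendrocyte lineage.

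The study sorted TdTomato-positive cells from frontal cortex and hippocampus of mice of both sexes at postnatal days 18 to 20 and counted their transcripts with 10x Genomics droplets. WT animals carried Nkx2-1Cre, Grin1wt/wt and the Ai14 reporter, and null animals carried Nkx2-1Cre, Grin1fl/fl and Ai14, so Cre and reporter were common to both groups. Deletion rested on the Nkx2-1-driven Cre, and each library pooled animals. There were 3 WT and 2 null libraries per region, replicate 1 with version 2 and replicates 2 and 3 with version 3 of the chemistry.

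Library totals differed widely. WT cortex replicates 1, 2 and 3 held 9306756, 14212183 and 28057207 UMIs, with medians of 7098, 2903 and 6519 per cell. In WT hippocampus the totals were 10555408, 8782181 and 20639002 and the medians 4411, 1479 and 5741. Null cortex had 1488601 and 25688337 UMIs (medians 6641 and 8224.5) and null hippocampus 3856745 and 47338167 (8839 and 9508). No more than 12 barcodes were shared by any pair of libraries. Levels are given below in CPM, the UMIs of a gene per 1000000 UMIs of all cells of a class, in a library or pooled over the WT libraries. Intervals are 95% intervals of counting error only.

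WT hippocampus replicate 2 stood apart. It had the fewest UMIs per cell, and 70.7% of its SST cells with TH cells fell in a cluster of low depth. Of its NGFCs, 99.6% lay in cluster 15. Another 627 and 636 of its cells (21.0 and 21.3% of its oligodendrocyte lineage) formed 2 clusters that were left unstaged, against at most 28 and 24 cells and at most 1.91 and 1.37% in any other library. Class levels that lean on it are therefore given with each library named. Shares of cells with a gene are pooled over the WT libraries, this one included.

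Class names stand for cells that resemble the named type, since classes were built from clusters of the same counts. The sorted interneurons bore their MGE label: pooled WT Lhx6 was 103 CPM in SST, 87.0 in TH, 101 in PVALB and 214 in NGFC cells, against 1.17 in mature oligodendrocytes and 4.03 (1 UMI) in microglia. Nkx2-1 persisted in NGFCs at 45.3 to 132 CPM per library and stayed at 1.44 to 10.3 in the SST cells with TH cells. The CGE was not among the names a cluster could be given. Its label here holds for the genes, and cells of CGE type were not sought as a class. "SST with TH" below joins all SST clusters, the Chodl cluster included, with the TH (tyrosine hydroxylase) cluster, as in the tests. Tested PVALB sums include the Pthlh and Crabp1 clusters and tested sums of oligodendrocyte precursor cells (OPCs) the cycling cells.

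Grin1, the gene deleted, was low in every null library. In SST with TH cells it stood at 153, 254 and 233 CPM in WT cortex and at 118, 174 and 156 in WT hippocampus. Null cortex had 36.5 and 28.9 and null hippocampus 23.9 and 22.0, all below every WT library of both regions. The change was -2.71 on the log2 scale in cortex and -2.70 in hippocampus (null minus WT, edgeR adjusted p 0.0356 and 0.0363). PVALB cells ran from 105 to 214 CPM in WT against 16.5 to 42.5 in null libraries, and NGFCs from 111 to 178 against 15.1 to 33.2. How far the deletion reaches into the 3′ ends that were counted is not given, so residual Grin1 reads are no measure of escaped cells.

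Over all cells of the files, the 8 genes were spread very unevenly. Npas1 had 10872 UMIs in 3565 cells, Nr2f1 9796 in 5724, Prox1 6691 in 4323, Npas3 5494 in 3605 and Nr2f2 5461 in 2593. Vip had 1007 UMIs in only 36 cells, Htr3a 225 in 144 and Sp8 42 in 33. No cell had more than 10 UMIs of Prox1 or Npas3 and none more than 20 of Npas1, but 1 cell had 215 of Vip. As the UMIs tag 3′ ends, levels are compared between cells and not between genes.

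**Figure D1:**
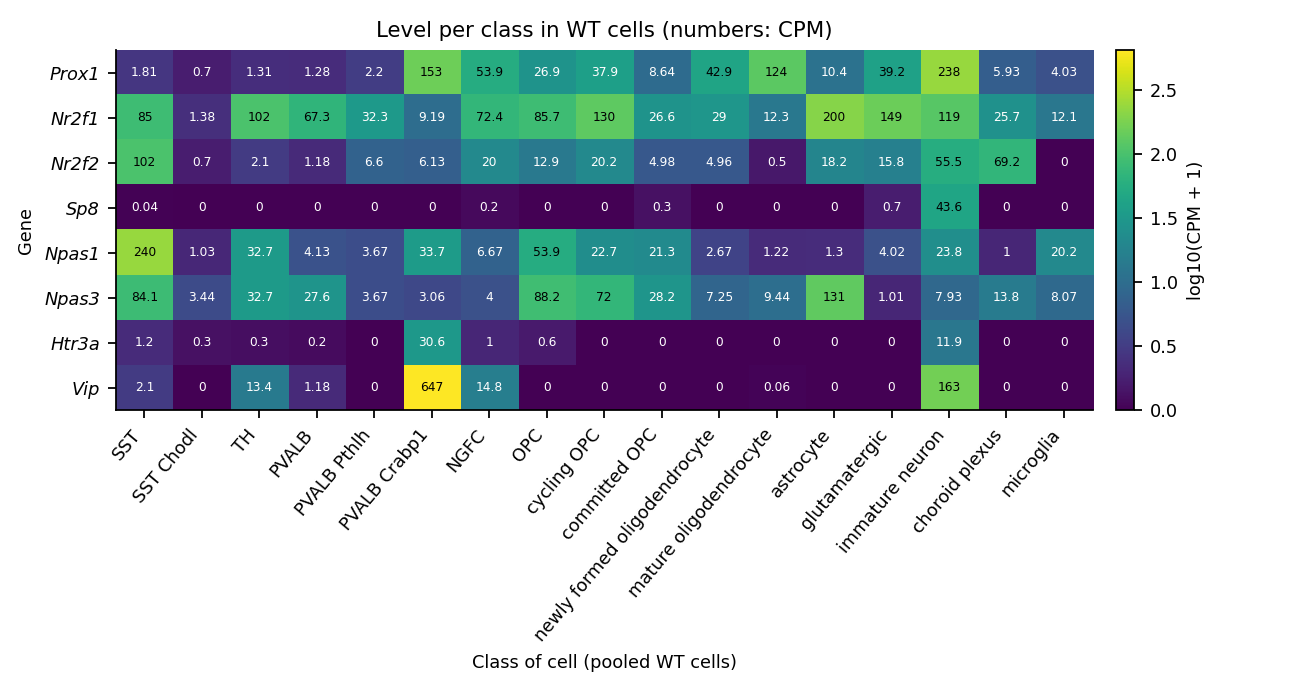
Levels of the 8 genes (rows) in 17 classes of pooled WT cells (columns), shaded by log10 of CPM plus 1 with the CPM printed. Prox1 stands out in oligodendrocytes, NGFCs, the Crabp1 cluster of PVALB cells and immature neurons. Nr2f2 and Npas1 stand out in SST cells, and Sp8 only in immature neurons.

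Prox1, a homeodomain factor needed for the maturation and placement of CGE interneurons, was mainly a gene of oligodendrocytes in these cells. Its pooled WT level was 92.4 CPM in the oligodendrocyte lineage and 8.55 CPM in interneurons. Mature oligodendrocytes stood at 124 CPM (119 to 129), newly formed ones at 42.9 (37.5 to 48.9), OPCs at 26.9 (19.6 to 36.2) and committed OPCs at 8.64. The OPC level leaned on WT hippocampus replicate 2, with 101 CPM (23 UMIs in 260 cells) against 0, 9.43 and 29.97 in WT cortex and 31.8 and 10.07 in the other WT hippocampus libraries. Committed OPCs, without a sum from that library, had 2.29 to 21.7 CPM and overlapped these. Libraries of newly formed (30.4 to 148 CPM) and mature oligodendrocytes (56.7 to 267 CPM) overlapped too, so the order of stages is that of the pooled levels only. It was detected in 35.9% (34.5 to 37.3) of 4424 mature oligodendrocytes with a median of 3511.5 UMIs, against 0.478% (1 of 209) of microglia with a median of 1096. For thinned shares, cells of at least 1000 UMIs were reduced to 1000 and shallower cells left out, so that 115 of the 209 microglia remained. The thinned shares were 13.6 and 0% (microglia interval up to 3.23%), and newly formed, committed and OPC cells had 3.57, 0.715 and 2.23%.

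Interneurons split sharply in Prox1. NGFCs had 53.9 CPM (48.2 to 60.1) and Prox1 in 18.7% of 1253 cells (16.6 to 20.9, median 3397 UMIs, thinned 6.15%). The cluster of PVALB cells marked by Crabp1 had 153 CPM (114 to 202), with Prox1 in 21 of 40 WT cells (thinned 17.5%). Other PVALB cells had 1.28 CPM, Pthlh cells 2.20, SST cells 1.81, TH cells 1.31 and Chodl cells 0.688, all under the 4.03 CPM (1 UMI) of microglia. In SST cells, deep as they are (median 5789 UMIs), the share with Prox1 was 0.816%, or 0.152% when thinned. Among thinned NGFCs, Lhx6 was seen in 12 of 68 cells with Prox1 (17.6%, 10.4 to 28.4) and in 193 of 1037 without (18.6%, 16.4 to 21.1). These cells were pooled over the WT libraries, WT hippocampus replicate 2 included, and the difference was not tested.

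Ranked by the mean of the WT libraries, Prox1 ran from immature neurons (479 CPM) and glutamatergic cells (173) through mature oligodendrocytes (135) to NGFCs (62.3), newly formed oligodendrocytes (61.1) and, far down, SST (2.83), PVALB (2.71) and TH cells (1.07). No neighbours in that order differed by more than the spread of their libraries. The top of the order belonged to the hippocampus: glutamatergic cells had 668 and 196 CPM in WT hippocampus replicates 2 and 3 and 322 in null hippocampus replicate 2, against 0 to 1.28 in the cortical libraries. Immature neurons likewise had 1337, 528 and 633 CPM there and 12.2 to 46.5 in cortex.

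**Figure D2:**
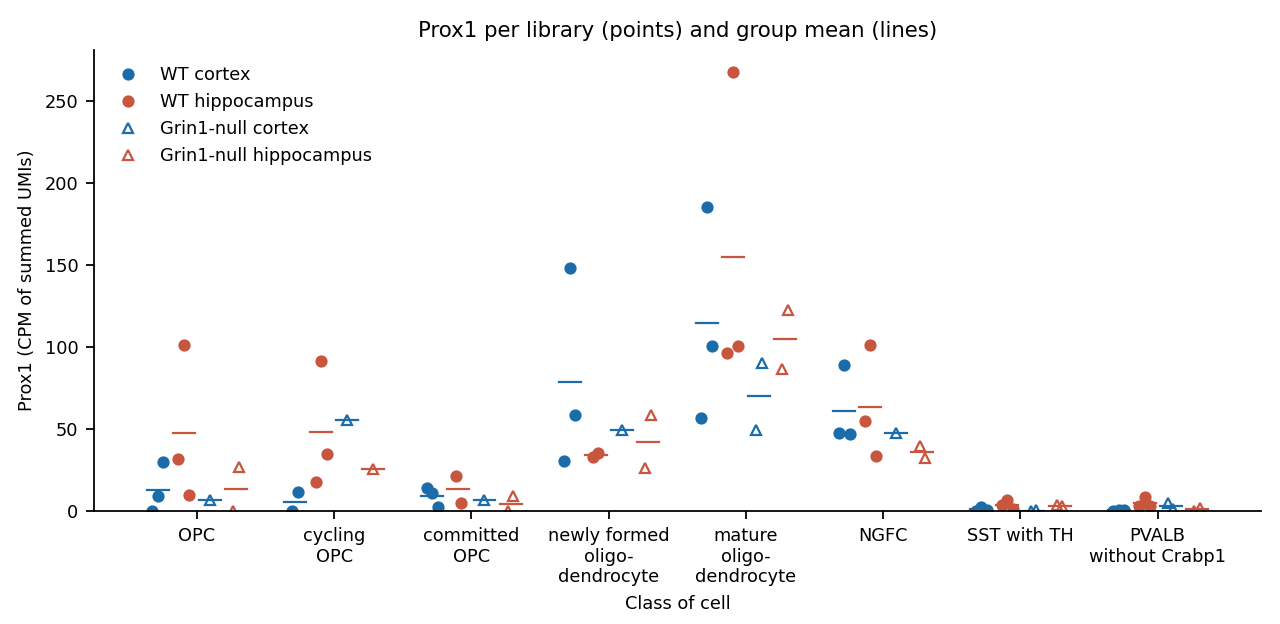
Prox1 level (CPM, vertical) of each library by region and genotype in 8 classes, with group means as lines. Mature oligodendrocytes and NGFCs carry Prox1 in every library with at least 10 cells of the class. SST with TH cells and PVALB cells without the Crabp1 cluster carry hardly any. The tested PVALB sums, which include that cluster, are not drawn.

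A gene was called at an edgeR adjusted p under 0.01 with a log2 change of at least 0.144 either way, from sums per library and class of at least 10 cells. By this rule the deleted gene Grin1, with the values given above, was itself not called in SST with TH cells of either region. A gene that was not called is therefore not shown to be unchanged. Over the 5 classes tested (SST with TH, PVALB, NGFC, OPC and mature oligodendrocyte), edgeR called 0 of 17 member tests of region in WT, 0 of 23 of genotype in cortex and 0 of 23 of genotype in hippocampus. At an unadjusted p under 0.05 the counts were 4, 3 and 1, and DESeq2 called 1 (Nr2f1 in SST with TH cells), 1 (Prox1 in PVALB cells) and 0. Of all genes, 4.28, 2.21 and 2.98% of tests were at that p over the 5 classes, and DESeq2 called 0.464, 0.0346 and 0.0122%. Groups did not overlap in 6, 11 and 2 of these tests, groups of a lone library or without UMIs included, that is 6 of 17, 11 of 23 and 2 of 23. Among all genes tested, summed over the 5 classes, the groups did not overlap in 9.25% of tests of region, 25.5% of genotype in cortex and 16.8% of genotype in hippocampus. Among all genes edgeR called 0.0582% in SST with TH cells (7 of 12024) and 0.0339% in PVALB cells (3 of 8846) between regions, 0.0103% in PVALB cells of null cortex (1 of 9734) and 0% in each of the other 12 contrasts. For the interaction of genotype with region edgeR called 0 of 23 member tests and 0% of all genes in each of the 5 classes, with 3 members at an unadjusted p under 0.05 (0.624% of tests over all genes) and 0 by DESeq2. NGFC and OPC sums of null cortex came from a lone library, assumed to vary like the other groups.

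By the edgeR test described above Prox1 was called in no contrast, while DESeq2 and some other settings called it in PVALB cells of null cortex, given below. Mature oligodendrocytes had 56.7, 185.5 and 101 CPM in WT cortex, 96.6, 267 and 101 in WT hippocampus, 49.4 and 90.4 in null cortex and 86.9 and 123 in null hippocampus. Replicate 2 was the highest of each WT region and the groups overlapped. NGFCs had 47.4, 89.0 and 46.8 CPM in WT cortex, 55.1, 101 and 33.9 in WT hippocampus, 47.9 in the lone null cortex library and 39.8 and 32.4 in null hippocampus. There too replicate 2 was the highest of each WT region. WT hippocampus replicate 3 lay between the null hippocampus libraries, so the groups overlapped.

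SST with TH cells had 0.19, 2.61 and 0.754 CPM of Prox1 in WT cortex and 3.74, 6.96 and 1.59 in WT hippocampus, with 0 and 0.631 in null cortex and 3.51 and 3.20 in null hippocampus. The WT regions overlapped, and no library of these cells came near the 32.4 CPM of the lowest NGFC library. Sox10, a factor of the oligodendrocyte lineage with 163 to 290.2 CPM in mature oligodendrocytes of WT libraries, was present in the same sums at 2.28, 2.46 and 2.19 CPM in WT cortex and 7.94, 25.9 and 4.25 in WT hippocampus. It was highest in WT hippocampus replicate 2, as Prox1 was, and its part in the Prox1 of SST with TH cells was not tested. NGFCs had 0, 2.28 and 7.80 CPM of Sox10 in WT cortex and 5.51, 24.4 and 5.32 in WT hippocampus. Replicate 2 of the hippocampus was highest in both genes, and the part of oligodendrocyte RNA in the Prox1 of NGFCs was not tested.

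PVALB cells of null cortex held the largest Prox1 contrast. The tested sums had 2.73, 4.91 and 5.85 CPM in WT cortex and 42.5 and 38.3 in null cortex, with 2.91, 8.69 and 7.94 in WT and 0 and 5.57 in null hippocampus. Both null cortex libraries lay far above all others. The log2 change in cortex was 3.004 (standard error 0.47, edgeR p 1.41e-05, adjusted p 0.0229), which misses the threshold, while DESeq2 gave 3.08 with adjusted p 0.00201. For the same sums the interaction of genotype with region was -3.67 (standard error 0.84, edgeR p 0.000572, adjusted p 0.99995), and it ranged from -9.63 to -3.38 when 1 library was left out.

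The composition of the sums moved with this contrast. Crabp1-cluster cells were 10 of 138, 9 of 494 and 18 of 631 PVALB cells in WT cortex (7.25, 1.82 and 2.85%) and 7 of 28 and 56 of 240 in null cortex, where the larger library had 23.3%. In that cluster Prox1 was 47.0 and 165 CPM in WT cortex replicates 1 and 3 (10 and 18 cells) and 149 CPM in null cortex replicate 2 (56 cells), so null and WT levels within it overlapped. Without the cluster, PVALB cells had 0, 0.768 and 0.816 CPM in WT cortex and 4.76 (1 UMI) and 1.25 (3 UMIs) in null cortex, too few for Prox1 to pass the filter on low counts. Nkx2-1 took the same course, with 24.6, 14.7 and 12.0 CPM in WT and 46.0 and 87.1 in null cortex sums (log2 change 2.15, edgeR adjusted p 0.0484), and so did Kit (2.55, edgeR adjusted p 0.0277). Nkx2-1 in the Crabp1 cluster was 313 and 201 CPM in WT cortex and 262 in null cortex.

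Nr2f1 and Nr2f2 encode the COUP-TF nuclear receptors, which pattern the caudal eminence and, in the MGE, its dorsal and caudal parts. Nr2f1 was broad: pooled WT cells had 199.96 CPM in astrocytes, 149 in glutamatergic cells, 119 in immature neurons, 102 in TH cells, 85.7 in OPCs, 85.0 in SST cells, 72.4 in NGFCs and 67.3 in PVALB cells. After the OPC stage it was lower, at 26.6 in committed and 29.0 in newly formed cells and 12.3 in mature oligodendrocytes, where microglia had 12.1 (3 UMIs). Chodl cells, with 1.38 CPM, all but lacked it. It was seen in 32.8% of SST cells and 0.957% of microglia (2 of 209), or 8.44 and 1.74% when thinned. In the ranking by library means only the steps from TH cells to OPCs and from OPCs to PVALB cells exceeded the spread of the libraries.

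Hippocampal cells had more Nr2f1 in several classes. SST with TH cells had 63.3, 45.6 and 59.8 CPM in WT cortex and 231, 120 and 132 in WT hippocampus. All 3 hippocampal libraries were above all 3 cortical ones. In edgeR the log2 change was 1.45 (standard error 0.31, p 0.0012, adjusted p 0.113), short of the threshold. DESeq2 (1.45, adjusted p 0.00193) and edgeR with the replicate number as a block (1.41, adjusted p 0.000328) were past it, the block raising the genes called in that contrast from 7 to 341. Null libraries had 46.5 and 37.7 CPM in cortex and 131 and 118 in hippocampus, and no test of region was made among them.

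Nr2f1 was also read within clusters of SST cells. Cluster 2 made up 13.2, 22.7 and 20.4% of SST with TH cells in WT cortex and 53.5, 21.0 and 25.9% in WT hippocampus, which overlap. Within it Nr2f1 was 84.2, 54.6 and 56.1 CPM in cortex and 308, 114.5 and 180 in hippocampus, without overlap. In cluster 4 the values were 41.7, 49.0 and 59.3 against 132, 59.1 and 155, where replicate 2 of the hippocampus touched the cortical range. The Sox10 levels given above were also higher in all 3 hippocampal sums of SST with TH cells, and the part of oligodendrocyte RNA in the Nr2f1 contrast was not tested.

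Other classes leaned the same way in the same 6 WT libraries. NGFCs had 33.9, 47.9 and 40.6 CPM in cortex and 114, 63.8 and 82.1 in hippocampus, mature oligodendrocytes 6.87, 5.44 and 9.96 against 10.8, 14.7 and 19.9, and PVALB sums 60.1, 51.0 and 63.0 against 69.7, 86.9 and 66.9. In none of the 3 classes did the regions overlap. The log2 changes were 1.09 in NGFCs (standard error 0.34, edgeR p 0.00872), 0.99 in mature oligodendrocytes (0.39, p 0.0305) and 0.37 in PVALB cells (0.26, p 0.189), with adjusted p of 0.9996, 0.9998 and 0.999. OPCs, at 107, 101 and 101 CPM in cortex and 85.9, 92.1 and 105 in hippocampus, showed no such order and the regions overlapped.

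In PVALB sums of null cortex Nr2f1 was 42.5 and 25.8 CPM, below the 3 WT cortex libraries. The edgeR log2 change was -0.91 (standard error 0.34, p 0.0177, adjusted p 0.969), and the interaction with region 1.02 (0.46, p 0.0426), which ran from -1.20 to -0.41 and from 0.52 to 1.31 when 1 library was left out, null hippocampus having 91.7 and 72.7 CPM. Without the Crabp1 cluster, whose pooled WT Nr2f1 was 9.19 CPM, null cortex had 57.2 and 34.0 against 63.8, 51.9 and 64.8, and the groups overlapped.

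Nr2f2 was far narrower, at 102 CPM (98.1 to 106) in SST cells against 2.096 in TH, 1.18 in PVALB, 0.688 in Chodl and 0.500 CPM in mature oligodendrocytes. Choroid plexus (69.2), immature neurons (55.5) and NGFCs (20.0) came next among the classes it marked. The step from SST cells to choroid plexus was the only one beyond the spread of the libraries. Nr2f2 was found in 30.3% of SST cells (thinned 8.49%) and in 0 of 209 microglia (interval up to 1.80%, below 12.1 CPM at a floor of 3 counts). Clusters within SST cells ranged from 8.39 CPM (cluster 13, with 7 of 7 SST markers, but no SST marker and 1 TH marker among its 10 top genes) through 55.5 (cluster 2) and 164 (cluster 4) to 222 (cluster 25). These pooled levels mix cluster with library. Of the 282 WT cells of cluster 25, 226 came from WT cortex replicate 1, and cluster 2 is given by library below.

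By library, SST with TH cells had 90.8, 51.0 and 78.8 CPM of Nr2f2 in WT cortex, 178, 64.6 and 91.4 in WT hippocampus, 85.2 and 28.3 in null cortex and 66.7 and 83.1 in null hippocampus. The groups overlapped throughout. Cluster 2 alone had 21.4, 9.01 and 16.4 CPM in WT cortex and 239.99, 53.1 and 104 in WT hippocampus, with 7.09 and 9.97 in null cortex and 66.6 and 102 in null hippocampus. There every hippocampal library lay above every cortical one in both genotypes. PVALB sums, at 0.911, 1.51 and 0.791 CPM in WT cortex and 8.72, 10.4 and 4.54 in WT hippocampus, were ordered likewise on 3 to 6 UMIs per hippocampal library. Sox10 in these PVALB sums was 0, 4.53 and 0.949 CPM in WT cortex and 8.72, 10.4 and 5.67 in WT hippocampus. The part of oligodendrocyte RNA in the Nr2f1 and Nr2f2 of PVALB sums was not tested. Pthlh cells had no Nr2f2 UMI in the 3 WT cortex libraries and 16.7, 22.0 and 14.2 CPM in WT hippocampus.

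**Figure D3:**
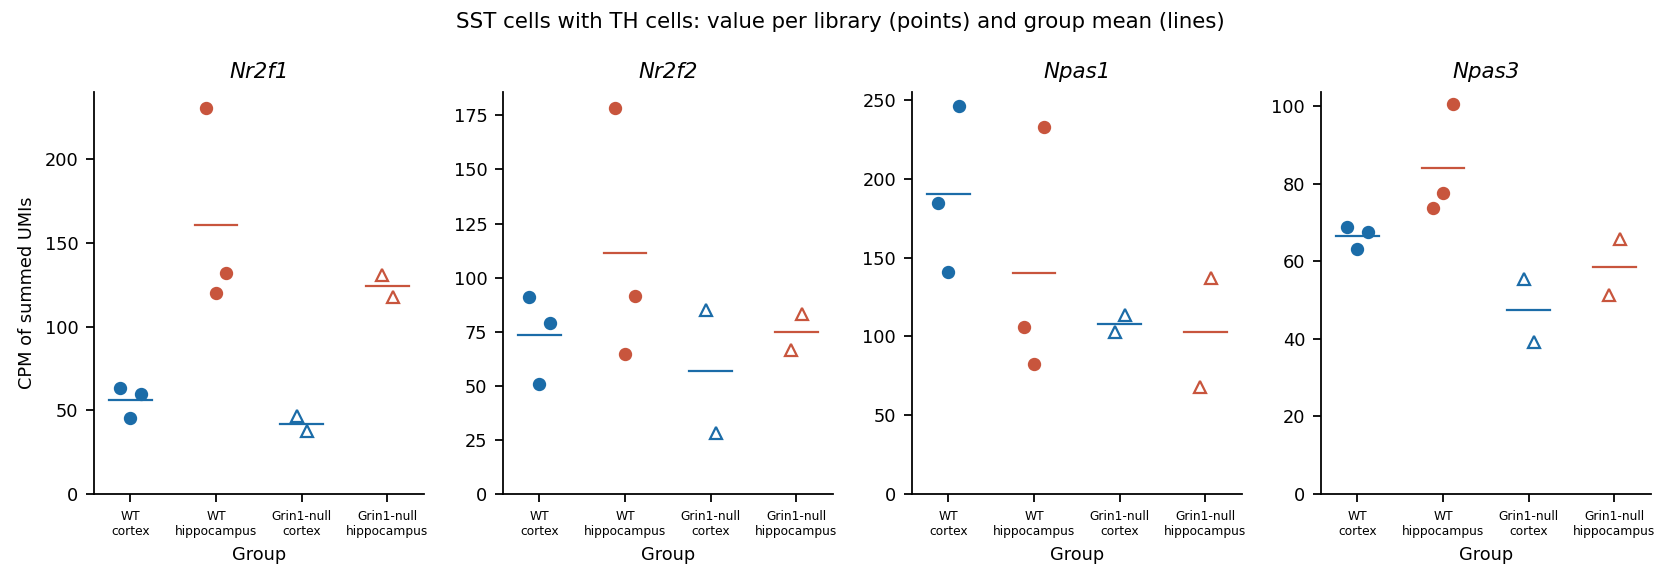
Nr2f1, Nr2f2, Npas1 and Npas3 in SST with TH cells (CPM, vertical) of each library by region and genotype. Nr2f1 separates the regions in both genotypes, and Npas3 of null libraries lies under the WT libraries of its region.

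Npas1 and Npas3 encode PAS-domain transcription factors found in developing interneurons, Npas1 with a restraining part in CGE output. Npas1, like Nr2f2, was highest in SST cells, with 240 CPM (235 to 246) in SST cells and UMIs in 51.7% of them (thinned 17.9%) against 2.39% of microglia (thinned 0.870%). OPCs followed at 53.9 CPM and TH cells at 32.7, and the step from SST cells to OPCs exceeded the spread of the libraries. PVALB cells had 4.13, NGFCs 6.67, Chodl cells 1.03 and mature oligodendrocytes 1.22 CPM. SST clusters ran from 63.9 CPM in cluster 2 and 158 in cluster 5 to 248 in cluster 25, 335 in cluster 13 and 368 in cluster 4. Cluster 2 was thus low in Npas1 and, in cortex, in Nr2f2. As for Nr2f2, these cluster levels are pooled over WT libraries that filled the clusters unevenly. Of the 1189 WT cells of cluster 5, 578 came from WT hippocampus replicate 2.

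By library Npas1 in SST with TH cells was 185, 141 and 246 CPM in WT cortex, 106, 82.5 and 233 in WT hippocampus, 103 and 113 in null cortex and 68.1 and 137 in null hippocampus. Only null and WT cortex did not overlap, with an edgeR log2 change of -0.80 (standard error 0.44, p 0.0935, adjusted p 1). Chodl cells, nearly without Npas1, were 5.25, 11.2 and 3.55% of these sums in WT cortex and 2.70 and 20.1% in null cortex. In SST cells without the Chodl and TH clusters null cortex had 119 and 245 CPM against 229, 190 and 299, which overlap. OPC sums had 122, 37.9 and 90.5 CPM of Npas1 in WT cortex and 26.2, 10.53 and 43.5 in WT hippocampus, with WT cortex replicate 2 below the highest hippocampal library (edgeR log2 change -1.30, standard error 0.56, p 0.0356, adjusted p 0.998).

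Npas3 was highest outside interneurons, at 131 CPM in astrocytes and 88.2 in OPCs, and reached 84.1 in SST cells, where 34.6% had it (thinned 7.48%) against 0.957% of microglia (thinned 1.74%). TH cells had 32.7, PVALB cells 27.6 and NGFCs 4.003 CPM. Along the oligodendrocyte lineage it was lower after the OPC stage, at 28.2 in committed, 7.25 in newly formed and 9.44 CPM in mature cells, near the 8.07 of microglia. Of the named classes in the ranking by library means, only the unstaged oligodendrocyte lineage stood above its next neighbour, mature oligodendrocytes, by more than the spread.

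Null libraries had less Npas3 in SST with TH cells of both regions. The values were 68.8, 63.3 and 67.4 CPM in WT and 55.3 and 39.3 in null cortex, and 73.8, 77.6 and 101 in WT and 51.3 and 65.8 in null hippocampus. Each null library lay under the WT libraries of its region. Both null hippocampus libraries were also deeper per cell than the WT ones, and the part of depth was not tested. The edgeR log2 change was -0.50 in both regions (standard error 0.26 each, p 0.0786 and 0.0764, adjusted p 1 and 0.959). When 1 library was left out the change ran from -0.75 to -0.24 in cortex and from -0.66 to -0.35 in hippocampus. SST cells without the Chodl and TH clusters kept this order, with 83.0, 84.4 and 79.0 against 64.4 and 70.0 in cortex and 80.1, 81.6 and 108 against 54.2 and 69.2 in hippocampus. Between regions in WT the sums did not overlap either, hippocampus being above cortex, with a log2 change of 0.28 (standard error 0.22, edgeR adjusted p 0.989, 0.12 to 0.36 with 1 library left out). Without the Chodl and TH clusters the SST cells of the WT regions overlapped.

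Mature oligodendrocytes of null libraries likewise had little Npas3. They held 8.59, 11.4 and 11.6 CPM in WT and 0 and 5.18 in null cortex, and 10.996, 8.55 and 6.08 in WT and 2.67 and 3.42 in null hippocampus. Again no null library reached a WT library of its region. The log2 change was -1.15 in cortex (standard error 0.57, edgeR p 0.0646) and -1.42 in hippocampus (0.54, p 0.0197), with adjusted p of 0.99995 and 0.9998. Null cortex replicate 1, at 0, held only 18 of these cells (interval up to 30.4 CPM), and leaving out 1 library moved the cortical change to between -8.16 and -0.99. PVALB sums had 33.7, 21.9 and 25.3 CPM in WT cortex, 8.72, 17.4 and 21.6 in WT hippocampus and 21.2 and 11.5 in null cortex. WT cortex lay above both of the others, barely so for WT hippocampus replicate 3 and null cortex replicate 1. The log2 change was -0.63 between the WT regions (standard error 0.37, edgeR p 0.121, adjusted p 0.999) and -0.96 for null against WT cortex (0.43, p 0.041, adjusted p 0.9999), the latter running from -1.23 to -0.27 when 1 library was left out. Without the Crabp1 cluster null cortex had 28.6 and 14.9 CPM against 35.8, 22.3 and 26.1 and overlapped. Npas3 was not lower in null libraries of every class. In PVALB sums of hippocampus the log2 change was 0.06 and the genotypes overlapped. The lone OPC sum of null cortex, at 111 CPM, lay above the WT cortex libraries (log2 change 0.36), while OPCs of null and WT hippocampus overlapped (-0.44).

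Sp8, a zinc-finger factor of the CGE and of olfactory interneuron precursors, was all but absent from the named interneuron classes. It had 2 UMIs in all WT cells of these classes (0.0384 CPM). Of the 33 cells with Sp8 in any library, 19 were immature neurons, 25 had Meis2, 11 had the TdTomato transcript and 1 had Lhx6. Another 4 of them, with 8 UMIs, were unnamed cells of WT hippocampus replicate 3. All 4 had Gad1 and the TdTomato transcript, and 3 had Nkx2-1. Immature neurons stood at 43.6 CPM (21.8 to 78.1), but this cluster was mixed, with Oxt, Avp, Neurod1, Eomes and Meis2 among its top genes.

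Htr3a, which encodes a subunit of the ionotropic serotonin receptor, was rare, and within SST cells mainly hippocampal. Of 215 UMIs in 139 kept cells, 94 of the cells came from hippocampus and 45 from cortex, 83 had Lhx6, 90 had Sst and 128 the TdTomato transcript. SST cells made up 70 of them, 68 from hippocampus, while 19 lay in the Crabp1 cluster, 17 of these from cortex, 18 in unnamed clusters (11 cortical) and 16 among NGFCs. Of the 17 cells with at least 3 UMIs, 11 were SST cells, all from hippocampus, and 4 lay in unnamed clusters, 3 of them cortical. SST with TH cells had 0.38, 0 and 0.137 CPM in WT cortex and 6.07, 1.49 and 3.98 in WT hippocampus, with 0 and 0.315 in null cortex and 14.1 and 5.47 in null hippocampus. Every hippocampal library was above every cortical one. PVALB sums had another order, at 3.64, 0.377 and 0.158 CPM in WT cortex, 0, 0 and 6.81 in WT hippocampus, 10.6 and 3.73 in null cortex and 0 and 0.485 in null hippocampus. There null cortex lay above null hippocampus and above WT cortex, barely so for 3.73 against 3.64, and the WT regions overlapped. The share of the Crabp1 cluster in the PVALB sums of null and WT cortex differed as given above. Mature oligodendrocytes had no Htr3a UMI (below 0.167 CPM at a floor of 3 counts).

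Vip, the peptide that names a main class of CGE interneurons, rested on a handful of cells. Of its 1007 UMIs, 985 lay in 18 cells with at least 5 UMIs each, and 3 cells held 615. Of the 18 cells, 12 were cortical, 12 had the TdTomato transcript, 8 had Prox1, 8 had Sst, 6 had Lhx6, 9 had neither Lhx6 nor Sst and 1 was marked as a doublet. NGFCs included 8 of them with 552 UMIs, a name that these cells take from their clusters. Of these 8, only 3 had the NGFC marker Lamp5 and 2 had Lhx6. Prox1 was seen in 6, the CGE-lineage gene Adarb2 in 5, and 5 had neither Lhx6 nor Sst. Class levels of Vip are therefore levels of single cells: the 647 CPM of the Crabp1 cluster is 1 cell with 211 UMIs and the 163 CPM of immature neurons is 41 UMIs in 3 cells. Fitted changes of Vip and Htr3a rest on these few cells and are not given here.

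Lists of related genes were read for SST with TH cells between the WT regions, where most members were tested. Of 18 CGE-lineage genes 14 were tested and edgeR called 0, with 9 at an unadjusted p under 0.05 and a median log2 change of 0.43. Calb2 (-1.82, edgeR adjusted p 0.113), Synpr (-0.39), Cnr1 (0.27) and Cck (0.58) were its named genes. Of 14 MGE-lineage genes 13 were tested, with 0 called, 4 at that p and a median of -0.15 (Sst -0.43, Satb1 -0.24, Mef2c -0.15, Zeb2 0.93). For 12 transcription factors of oligodendrocytes 8 were tested, with 0 called, 6 at that p and a median of 1.86 (Olig1 1.66, Sox10 2.37, Sox9 0.55, Id4 -2.23). The part of oligodendrocyte RNA within SST sums in these values was not tested. Of 18 family and partner genes of the members 12 were tested, with 0 called, 2 at that p and a median of 0.24 (Arnt2 -0.17, Adcyap1r1 -0.03, Sp9 0.83, Nr2c2 0.03). All 12024 genes tested there had a median of 0.02, with 918 (7.63%) at that p. DESeq2 called 157 of the 12024 genes (1.31%) and, of the 4 lists, 3, 0, 3 and 1 in that contrast: Slc17a8, Id2 and Calb2 of the CGE list (edgeR log2 changes 3.25, 2.19 and -1.82), Nfia, Myrf and Olig1 of the oligodendrocyte list (2.52, 2.32 and 1.66) and Nr2e1 of the family list (3.73). Over the 15 contrasts and all 4 lists edgeR called 0 of 534 tests, with 68 at an unadjusted p under 0.05 and 9 called by DESeq2. All genes had 3.11% of 140782 tests at that p and 220 (0.156%) called by DESeq2. Over the interactions edgeR called 0 of 191, with 13 at that p (0.624% for all genes) and 0 by DESeq2.

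In PVALB cells of null cortex, 6 CGE-lineage genes were tested, with 0 called, 3 at an unadjusted p under 0.05 in edgeR and a median log2 change of 0.70, against 3.77% of all genes at that p and a median of -0.00. DESeq2 called 1, Kit, against 15 of all 9734 genes (0.154%) in that contrast. Kit is among the 10 top genes of the Crabp1 cluster, whose share in these sums differed as given above. The other named genes were Cnr1 (1.18), Cck (-0.46) and Id2 (-0.37), none of them called by either tool. Summed over the list, CGE-lineage genes had 2836 CPM in pooled WT glutamatergic cells, 2634 in NGFCs, 2201 in immature neurons, 2039.6 in Pthlh cells, 1746 in astrocytes, 1566 in SST cells and 49.1 in mature oligodendrocytes. Such sums can rest on a few abundant genes, and Id2 of the list also served to name NGFCs. At 20 CPM or more were 10 of the 18 genes in immature neurons, 8 in NGFCs, 7 each in SST and glutamatergic cells, 4 in astrocytes and 1 in mature oligodendrocytes. Neither measure placed the interneuron classes above all others. Prox1 itself is not in that list.

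Across 17 classes of at least 50 WT cells, each gene had its nearest patterns by Spearman correlation of pooled levels. The classes share libraries and depths, so these are descriptions only. Prox1 lay nearest to Prox1os (0.897), Cacna2d1 (0.870) and Gm20417 (0.850). Nr2f1 was closest to A830082K12Rik (0.909), B930095G15Rik (0.873) and Ncan (0.865), and Nr2f2 to Igfbp2 (0.835), 1110004E09Rik (0.821) and Psmc3ip (0.821). For Npas1 they were Aggf1 (0.895), Znhit6 (0.887) and Zfp318 (0.873), and for Npas3 G0s2 (0.868), Tmem100 (0.843) and Rab13 (0.826). The sparse genes gave Ctu2 (0.797), Zfp821 (0.794) and Wdr83 (0.783) for Sp8, Myh13 (0.929), Wnk3 (0.879) and 3010001F23Rik (0.858) for Htr3a, and Fbxo28 (0.812), Thtpa (0.797) and Sln (0.796) for Vip. None of the 8 genes was among the nearest of another.

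For Prox1 and Nr2f1 the nearest pattern belonged to an overlapping transcript of the other strand. Prox1 lies on the minus strand at chr1 190118035 to 190170714 and shares 419 bases with Prox1os, and Nr2f1 lies on the minus strand at chr13 78188973 to 78199757 and shares 1741 bases with A830082K12Rik (GRCm38). The shared bases lie at the 5′ ends of both genes of each pair, away from the 3′ ends that the UMIs tag. Prox1os had 49.2, 28.7 and 28.2 CPM in mature oligodendrocytes of WT cortex and 50.6, 10.9 and 29.9 in WT hippocampus. It was thus lowest in WT hippocampus replicate 2, where Prox1 was highest. Nr2f2 and Npas1 both lie on chr7 and Sp8 and Npas3 on chr12, each pair many megabases apart.

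RefSeq promoters of 250 bases were at hand for 7 of the 8 genes, Htr3a having none. The second Prox1 entry is shown because it lies within Prox1os (plus strand, 190170296 to 190217276), which had the nearest pattern. On GRCm38.p6 it is chr1:190170828-190171077, minus strand, read 5′ to 3′ with its 2 GC boxes (GGGCGG) in capitals:

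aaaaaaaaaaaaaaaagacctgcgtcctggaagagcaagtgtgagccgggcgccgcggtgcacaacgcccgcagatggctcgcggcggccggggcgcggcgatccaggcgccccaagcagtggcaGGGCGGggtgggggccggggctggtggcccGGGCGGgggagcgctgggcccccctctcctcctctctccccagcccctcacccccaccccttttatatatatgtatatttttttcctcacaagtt

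It is 64.8% G and C and has 0 copies of the hexamer AGGTCA bound by nuclear receptors such as Nr2f1 and Nr2f2. GC boxes, counted on both strands, occurred in 10756 of 32851 promoters (32.7%) and the hexamer in 4607 (14.0%).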

How the data were processed

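UMI counts made and deposited by the authors with Cell Ranger on mm10 with extended gene ends were used as they are (version 2.1.1 in the processing notes, 3.0.2 in the matrix headers). Libraries were told apart by barcode suffix and matched to replicates by cell number. Of 26987 cells, 26201 had 200 to 6000 genes with less than 30% of UMIs mitochondrial and went on. The largest losses were in null libraries, where replicate 2 of cortex went from 2898 to 2578 cells and of hippocampus from 4436 to 4055. Seurat 5.3.0 integrated the cells kept (2000 features, 25 dimensions) and found 34 clusters at resolution 1. A class needed at least 3 of its markers at 20 CPM. Scrublet (rate 0.06) marked 249 doublets for an alternative. For thinned shares, 23067 cells were reduced to 1000 UMIs and the cells below that depth were left out.

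Sums per library and class were tested with edgeR 4.0.16 (TMM, filterByExpr, quasi-likelihood, Benjamini-Hochberg) in R 4.3.3, with DESeq2 1.42.0 as an alternative. Other steps used scanpy 1.11.5, pandas 2.3.3, numpy 2.4.6 and scipy 1.17.1 under Python 3.11.15. Gene positions are from GENCODE vM21.

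Same-numbered WT libraries of the 2 regions deviated together in SST with TH cells (correlations 0.386 to 0.661), PVALB cells (0.324 to 0.556), NGFCs (0.212 to 0.507) and mature oligodendrocytes (0.399 to 0.766), less so in OPCs (lowest 0.0794). Null and WT libraries formed only 2 such pairs (0.183 to 0.383). The replicate block was therefore run as an alternative.

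The members and gene lists were chosen with earlier results of these data known. Nearest patterns were taken among genes of at least 20 CPM in 1 class. The rule that left clusters 12 and 14 unstaged was applied after data and tests were seen, as was the choice of members whose changes are given in figures (tested, and groups of at least 2 libraries not overlapping or an unadjusted p under 0.05, with no group at 0 UMIs). Another 4 alternatives (SST without the Chodl or the low-depth cluster, PVALB without the Crabp1 cluster, mature oligodendrocytes with cluster 12) were also added after the data were seen, as were the Sox10 levels. The unstaged rule, met where the 10 top genes hold more markers of another class, was not applied between SST and TH.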

Additional observations from a re-analysis of the deposited data

How the results depend on the processing

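Of 63 member tests in 15 contrasts edgeR called 0, and alternatives moved this in few places. For region in SST with TH cells DESeq2 called 1 (Nr2f1), the replicate block 1 (Nr2f1, adjusted p 0.000328) and testing without a filter on low counts 2 (Nr2f1 and Htr3a). The block changed no other member call. For genotype in PVALB cells of cortex 1 (Prox1) was called at an adjusted p under 0.05, by DESeq2, without the filter, with only the 2 groups compared and without WT hippocampus replicate 2. Without the filter 1 (Vip) was also called for genotype in SST with TH cells of cortex and of hippocampus and their interaction, for region, genotype in hippocampus and interaction in PVALB cells, and for region and genotype in cortex and in hippocampus in NGFCs. Genes called over the 15 contrasts went from 11 to 67 at an adjusted p under 0.05, 220 with DESeq2, 504 without the filter and 507 with the block, and to 1, 0 and 0 without WT cortex replicate 1, 2 or 3 and 3, 19 and 1 without WT hippocampus replicate 1, 2 or 3. Over the alternatives the log2 change of Nr2f1 in SST with TH cells between regions ran from 1.10 to 1.602 (adjusted p 0.000328 to 0.426) and that of Prox1 in PVALB cells of null cortex from 2.86 to 3.29 (7.68e-07 to 0.828). Other ranges were those of Prox1 in the PVALB interaction (-9.63 to -2.82), Npas3 in mature oligodendrocytes of null cortex (-8.16 to -0.99), Npas3 and Nr2f1 in PVALB cells of null cortex (-1.23 to -0.27 and -1.20 to -0.41), Nr2f1 in the PVALB interaction (0.25 to 1.31), Npas1 and Npas3 in SST with TH cells of null cortex (-0.997 to -0.47 and -0.75 to -0.24), Npas1 in OPCs between regions (-1.94 to -0.93), Nr2f1 in NGFCs (0.86 to 1.69) and PVALB cells (0.20 to 0.75) between regions and Npas3 in PVALB (-0.92 to -0.29) and SST with TH cells (0.12 to 0.46) between regions. None of the 17 changes given was reversed. Over all 63 member changes 59 of 1406 alternative values were reversed, in 26 changes, and 12 were called in an alternative, and for 23 interactions 54 of 516 in 16 changes, with 1 called. Of 40 levels (8 genes in the 5 tested classes, means of the WT libraries), 9 of 312 alternative values moved by more than the SD of the libraries, 7 of them with classes of single cells, and none of 240 with a library left out, though Prox1 in OPCs went from 28.6 to 14.8 CPM without WT hippocampus replicate 2, while 33 of 40 shares of cells moved when thinned.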
